A study of Mus musculus with 13 samples.

Results

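The sodium-calcium exchangers are membrane proteins that move calcium against the inward flow of sodium, and they fall into the K-dependent Slc24a branch (NCKX proteins, which carry potassium out along with calcium) and the K-independent Slc8a branch (NCX proteins). The 8 members described here were the rows whose mouse gene symbol is Slc24a1, Slc24a2, Slc24a3, Slc24a4, Slc24a5, Slc8a1, Slc8a2 or Slc8a3, out of 48709 genes in the count table. RNA came from enamel organs dissected from the mandibular incisors of mice at postnatal day 11. The 5 Het libraries are from mice carrying 1 Tgfbr2-G357W allele (Tgfbr2-G357W/+, called LDSR2 by the submitters) and the 8 WT libraries from Tgfbr2-+/+ littermates. The substitution models Loeys-Dietz syndrome, a disorder of TGF-beta signalling. The sources used here give neither strain nor sex, and each library was taken as 1 mouse.

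Ameloblasts are the epithelial cells that lay down enamel. In their secretory stage they build a protein matrix, and in their maturation stage they remove it and pass large amounts of calcium into the hardening mineral. Calcium leaves the cell through plasma membrane pumps and through sodium-calcium exchangers, which draw on the sodium gradient kept up by the sodium-potassium pump. Slc24a4 (NCKX4) is the exchanger best known in maturation-stage ameloblasts, and loss of its function in humans causes amelogenesis imperfecta, a defect of enamel.

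The bases that members share bear on whether reads could be shared between them. Over the 28 pairs of members, the longest run of identical bases in any annotated transcripts was 45 (Slc8a1 with Slc8a3), and between Slc24a members it was 26, against a read length of 75 bases. The coding sequences of Slc24a3 and Slc24a4 had 68.6% identity over aligned bases, those of Slc24a1 and Slc24a2 67.1%, and those of Slc8a1 and Slc8a3 72.0%. Slc24a4 and Slc8a3, from different branches, had 54.9%. The longest coding runs shared within each branch, 5′ to 3′, are printed because they are the longest stretches of coding sequence that members have in common.
Slc24a1 and Slc24a4: gtgggctctgctgtgttcaacatcct
Slc8a1 and Slc8a2: tttgtggccatggtctacatgttcct

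The 250 bases before the RefSeq starts of Slc24a4 (GRCm38.p6, chr12:102128477-102128726, plus strand) and Slc24a3 (chr2:145167525-145167774, plus strand) are shown because these genes gave the highest levels. Motifs were searched on both strands, and matches are in capitals. The SMAD box, bound by proteins that carry the TGF-beta signal, was searched as CAGAC. The RUNX motif was searched as TGTGGT, and for the E-box the letters searched were CACGTG. For the homeobox motif TAATTG was used, while the usual TATA box was given by TATAAA. The nuclear receptor motif searched here was AGGTCA.
Slc24a4: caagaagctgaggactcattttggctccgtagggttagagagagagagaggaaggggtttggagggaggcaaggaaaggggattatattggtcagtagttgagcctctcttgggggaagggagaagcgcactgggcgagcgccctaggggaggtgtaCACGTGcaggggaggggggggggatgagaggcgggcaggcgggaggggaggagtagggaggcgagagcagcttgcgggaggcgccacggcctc
Slc24a3: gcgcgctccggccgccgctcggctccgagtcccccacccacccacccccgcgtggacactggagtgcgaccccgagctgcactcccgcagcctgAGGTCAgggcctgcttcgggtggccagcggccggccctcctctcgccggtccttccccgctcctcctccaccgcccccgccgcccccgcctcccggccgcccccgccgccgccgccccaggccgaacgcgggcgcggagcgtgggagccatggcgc

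The Slc24a4 window held 1 E-box, found in 6.04% of 32536 such windows, and the Slc24a3 window 1 nuclear receptor motif, found in 14.0%. The 32536 windows compared were of distinct sequence and left out 1 chromosome, on which none of the 8 members lies. CAGAC was in neither the Slc24a4 nor the Slc24a3 window shown, while 42.2% of the 32536 hold it. Among the 10 starts of the 8 members, it was found once before Slc24a5 and once before Slc8a2. The Slc24a3 window had 35 CG dinucleotides, more than 97.0% of windows, and the Slc24a4 window 11, more than 64.2%, where the median was 6. Slc24a3 has another RefSeq start, not shown, whose window (chr2:145242361-145242610) held none of the motifs and 14 CG, more than 70.4% of windows. A match describes letters, not binding, and all 8 members had at least 1 start in the RefSeq table.

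Total counts per library ranged from 18852382 to 26508410. The enamel organ was marked in every library by ameloblast genes. The summed level of 10 secretory-stage genes was 193432 to 279698 CPM (counts scaled to library size) in Het and 145781 to 288426 in WT. Most of it came from Ambn, the matrix protein ameloblastin. Sp6, also of the 10, had 1 to 11 counts per library and was under the filter on low counts. The dissection holds other layers and cell types, so the levels are those of the tissue, and in bulk RNA fewer cells of a type and less RNA per cell cannot be told apart. Column names carry a number before a hyphen (1, 4 or 5), called the prefix here, and its meaning is unknown here. There were 1 Het and 3 WT libraries with prefix 1, 2 Het and 3 WT with prefix 4, and 2 of each with prefix 5.

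Slc24a4 was the highest of the 8 exchangers in every library. On the scale of CPM per kb of exon, which allows genes of different length to be compared, Slc24a4 stood at 15.7 ± 1.53 for the 5 Het libraries and 18.4 ± 2.63 for the 8 WT libraries (mean ± SD), above 87.9% of the genes tested. Slc24a3 came next with 4.41 ± 0.97 in Het and 4.17 ± 1.32 in WT. Slc24a2 followed with 0.985 ± 0.181 and 0.959 ± 0.196. The ranges of these 3 genes over the 13 libraries did not overlap, with Slc24a4 at 13.7 or more, Slc24a3 between 2.98 and 7.04, and Slc24a2 at 1.26 or less.

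Lower in the order the neighbours were not as clearly apart. Slc24a5 had a mean level of 0.508 ± 0.178 CPM per kb over the 13 libraries (SD) and Slc8a3 0.317 ± 0.120. The level and place of Slc24a5 are less sure, since 921 of its 2330 exonic bases are shared with another gene, Myef2. Slc24a2 was above Slc24a5 in 12 of 13 libraries and Slc24a5 above Slc8a3 in 11, and the ranges of both pairs overlapped. Slc24a1 (0.0332 ± 0.0360), Slc8a1 (0.00928 ± 0.00662) and Slc8a2 (0.00750 ± 0.00970) were at the bottom, with SDs of a size like that of their means. Slc24a1 was above Slc8a1 in 11 of 13 libraries and Slc8a1 above Slc8a2 in 9, and the ranges of both pairs overlapped.

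**Figure D1:**
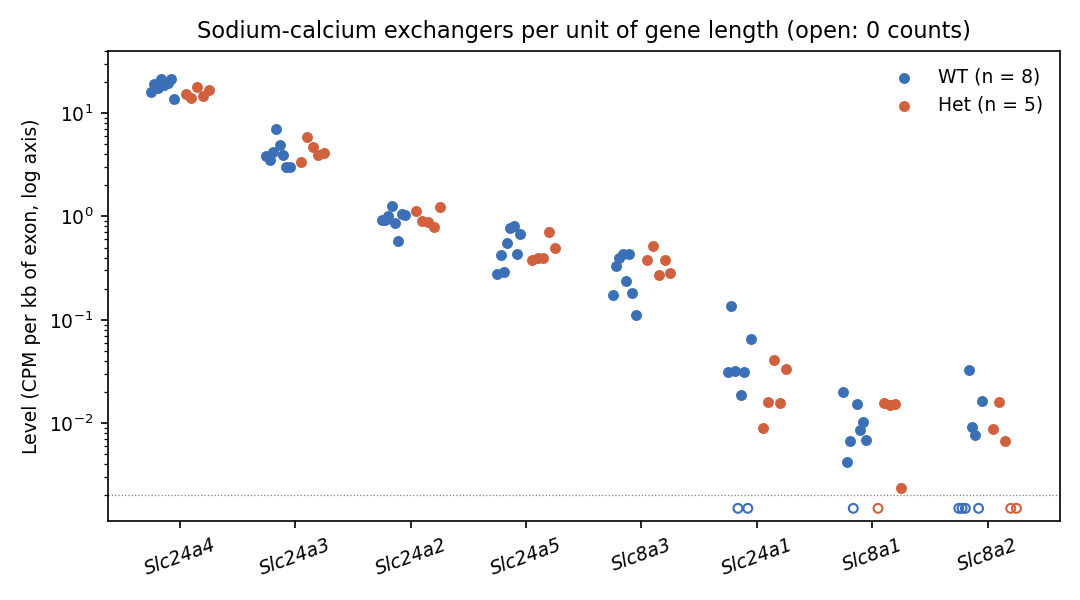
Level of each exchanger in CPM per kb of exon (log axis) in 8 WT and 5 Het libraries, 1 point per library, with libraries at 0 counts drawn as open points under the dotted line. Slc24a4, Slc24a3 and Slc24a2 occupy separate ranges, and Slc24a1, Slc8a1 and Slc8a2 have the lowest means, with the top Slc24a1 library (WT 1-3) inside the Slc8a3 range.

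Of the summed level of all 8 exchangers per kb, Slc24a4 made up 71.4% ± 4.17 over the 5 Het libraries and 75.4% ± 3.72 over the 8 WT libraries (mean ± SD). The 5 Het values were 74.6%, 64.3%, 73.9%, 71.5% and 72.9% in libraries 1-2, 4-2, 4-5, 5-5 and 5-6, and the WT values ran from 69.6% to 82.0%. The low Het value belongs to Het 4-2, where Slc24a3 made up 27.1%, its highest share of the 13. Slc24a3 averaged 20.1% ± 4.15 in Het and 17.0% ± 3.42 in WT, and the 3 NCX genes together with Slc24a1 and Slc24a5 filled the small remainder beside Slc24a2. These shares are free of the scaling between libraries, and the groups overlapped in each of them.

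**Figure D2:**
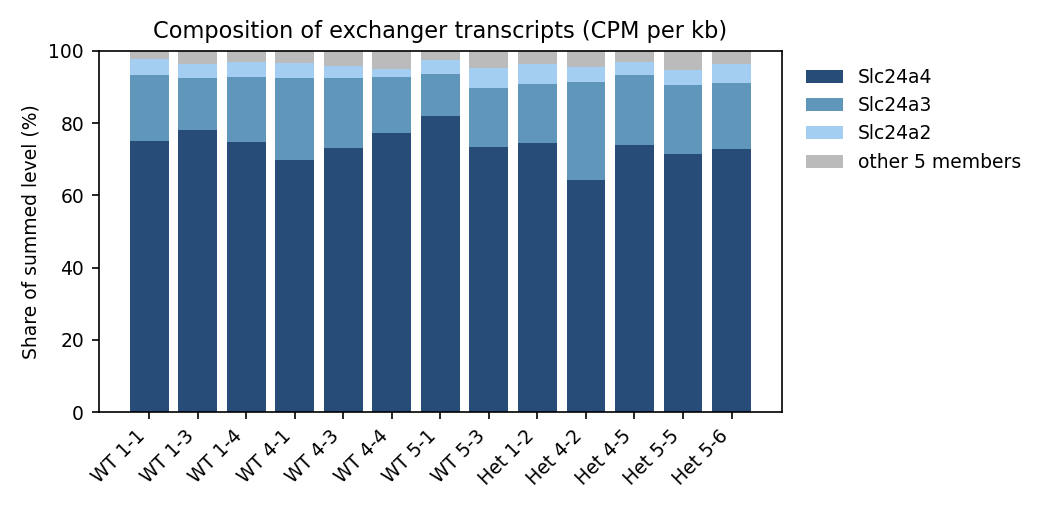
Share (%) of the summed exchanger level in CPM per kb taken by Slc24a4, Slc24a3, Slc24a2 and the other 5 members, 1 bar per library. Slc24a4 takes from 64.3% (Het 4-2) to 82.0% (WT 5-1).

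The comparison of Het with WT asked whether any exchanger's RNA level differed with the Tgfbr2 genotype. Of the 8 members, 5 passed the filter on low counts (Slc24a2, Slc24a3, Slc24a4, Slc24a5 and Slc8a3), and none of them passed the test. At a Benjamini-Hochberg adjusted p of 0.05, edgeR's quasi-likelihood test called 0.0857% of the 16328 genes tested, and DESeq2 0.410% of the genes it gave an adjusted p. At an unadjusted p under 0.05 none of the 5 was called by edgeR or DESeq2, against 6.90% of all genes by edgeR (4.18% lower in Het). Het and WT ranges overlapped for every member, and they were apart for 0.490% of genes tested. Log2 fold changes were negative for 2 members and positive for 3, with a median of 0.04, while 50.9% of all genes had a negative value.

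Slc24a4 (ENSMUSG00000041771, chromosome 12, 102128733 to 102267091, plus strand, GRCm38) had levels of 69.8, 63.3, 80.5, 65.9 and 74.9 CPM in Het libraries 1-2, 4-2, 4-5, 5-5 and 5-6. In WT the lowest was 61.8, the median 85.1 and the highest 96.7 CPM. All 5 Het libraries lay below the WT median, but the lowest of all 13 was a WT library, 5-3, and the groups overlapped. The difference of -0.23 ± 0.11 (log2 fold change, SE) corresponds to 0.854-fold, with a 95% interval of 0.727 to 1.00, and it was not past the threshold (edgeR adjusted p = 0.730, unadjusted 0.0530). Mean differences were -0.18, -0.33 and -0.13 within prefixes 1, 4 and 5. Its biological coefficient of variation was 0.148, near the median of 0.149 for the 500 genes of closest level.

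Slc24a4 was set beside other maturation-stage genes. Of 16 such genes in the list, 15 were tested, among them Klk4, Amtn, Odam and Wdr72, and Slc24a4 is not in the list. Slc26a4, with 0 to 24 counts per library, was under the filter. Slc26a3, with 0 to 41, is among the 15 and counts in the mean like the others. The mean of the 15 had a log2 CPM of 6.32 ± 0.29 over the 5 Het libraries and 6.60 ± 0.12 over the 8 WT libraries (mean ± SD). None of the 15 passed the edgeR threshold. Het 4-2 had the lowest list mean (5.84) and a Slc24a4 level of 5.99 log2 CPM. WT 5-3 had the lowest list mean of the WT libraries (6.38) and the lowest Slc24a4 level of all (5.95), and WT 5-1 had the highest list mean (6.82) with 6.58 for Slc24a4. Not every library ranked alike, since Het 5-6 and WT 4-1 had nearly the same list mean (6.59 and 6.60) and Slc24a4 levels of 6.23 and 6.60. A fit with the list mean as a covariate was chosen after seeing the data. In it the Slc24a4 log2 fold change was -0.06 ± 0.12 (SE, edgeR adjusted p = 0.868), in place of -0.23 ± 0.11. The list mean itself differed by -0.27 (Het minus WT), so this fit cannot tell the list apart from the genotype. The part of the list in the Slc24a4 difference was not tested.

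**Figure D3:**
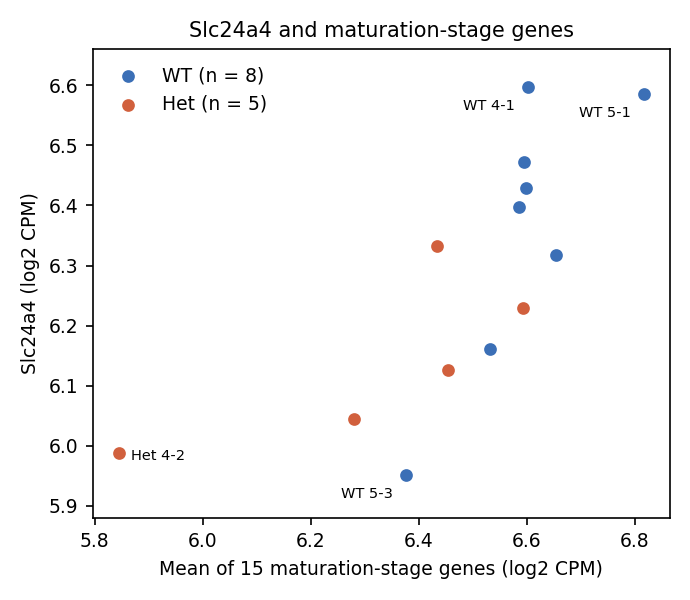
Slc24a4 level (log2 CPM) against the mean of 15 maturation-stage genes (log2 CPM), 1 point per library for 8 WT and 5 Het libraries. Het 4-2 and WT 5-3 are low on both axes, and WT 5-1 is high on both.

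Slc24a3 (NCKX3, known from brain and smooth muscle; ENSMUSG00000063873, chromosome 2, 145167754 to 145642166, plus strand) had levels of 15.4, 27.0, 21.4, 17.9 and 18.9 CPM in the Het libraries, in the order above. In WT the lowest was 13.6, the median 17.7 and the highest 32.1 CPM. The groups overlapped throughout, and the highest library of each was of prefix 4 (WT 4-1 and Het 4-2). The log2 fold change was 0.08 ± 0.18 (SE, 95% interval -0.30 to 0.46, edgeR adjusted p = 0.951), and it turned to -0.05 without Het 4-2. Within prefixes 1, 4 and 5 the mean differences were -0.18, 0.04 and 0.42.

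Slc24a3 was the 1 member whose level differed between prefixes. With prefix tested beside genotype, a test added after seeing the data, its edgeR adjusted p was 0.0437, where 6.08% of all genes passed, and the other 4 members had 0.245 to 0.739. Its mean was 4.57 log2 CPM over the 5 libraries of prefix 4, against 4.09 in prefix 1 and 4.00 in prefix 5. Its coefficient of variation of 0.229 was above the median of 0.162 for the 500 genes of closest level. The 10 markers of smooth muscle and pericytes summed to 7337 to 10606 CPM in Het and 6714 to 14446 in WT, with 97.3% to 98.8% of it from Rgs5 and none of the 10 at 0 in all libraries. The other 9 summed to 125.0 to 196 CPM in Het and 150.1 to 190.2 in WT. WT 5-1 was lowest both in the list's sum, nearly all of it Rgs5, and in Slc24a3. The highest were WT 4-4 for the list and WT 4-1 for Slc24a3. For the other 9 markers the lowest sum, 125.0 CPM, was in a Het library, not in WT 5-1. The part of these markers in the Slc24a3 level was not tested.

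Slc24a2 (NCKX2, an exchanger of neurons and cone photoreceptors; ENSMUSG00000037996, chromosome 4, 86983124 to 87230477, minus strand) had levels of 13.7, 11.1, 10.7, 9.69 and 14.9 CPM in the Het libraries. In WT the lowest was 7.04 (library 4-4), the median 11.9 and the highest 15.4 (library 4-1). Both extremes were thus WT libraries of prefix 4, with the Het values between them. The log2 fold change was 0.04 ± 0.16 (SE, 95% interval -0.29 to 0.37, edgeR adjusted p = 0.976). Of 10 nerve and Schwann cell markers, which summed to 24.01 to 59.4 CPM in Het and 29.5 to 53.6 in WT, Snap25 reached at most 2.24 CPM and Nefl 0.372, and none was at 0 in all libraries. The lowest Slc24a2 library, WT 4-4, had the highest nerve marker sum of the WT libraries, and the part of these markers in the Slc24a2 level was not tested.

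Slc24a5 (NCKX5, the exchanger of pigment cell organelles; ENSMUSG00000035183, chromosome 2, 125068124 to 125088677, plus strand) gave few reads. Het libraries had 19, 22, 26, 40 and 26 counts, and WT libraries 12 to 46 (median 28), so the groups overlapped. The log2 fold change was -0.16 ± 0.31 (SE, 95% interval -0.81 to 0.48, edgeR adjusted p = 0.939). Within prefixes 1, 4 and 5 the differences were 0.20, -0.77 and 0.11, so it was negative in prefix 4 alone. The gene shares 921 of its 2330 exonic bases with Myef2 on the opposite strand, and the libraries are not stranded. Myef2 gave 1281 to 2891 counts per library, and Slc24a5 counts came to between 0.820 and 2.00 percent of them, so reads of either gene in the shared bases cannot be told apart. Of 8 melanocyte markers, the sum was 40.7 to 57.2 CPM in Het and 43.7 to 98.8 in WT, most of it from Mitf. The pigment genes Tyr, Tyrp1, Mlana, Slc45a2 and Oca2 reached at most 8 counts in a library, while Pmel had 33 to 72 and Dct 129 to 295. The part of these markers in the Slc24a5 level was not tested.

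The NCX branch was represented by Slc8a3 alone above the filter. Slc8a3 (NCX3, known from brain and skeletal muscle; ENSMUSG00000079055, chromosome 12, 81197915 to 81333180, minus strand) had levels of 2.00, 2.78, 1.45, 2.01 and 1.49 CPM in the Het libraries. In WT the lowest was 0.599, the median 1.504 and the highest 2.33 CPM. Het 4-2 was the highest of all 13 and WT 5-3 the lowest, and the groups overlapped. The log2 fold change of 0.34 ± 0.31 (SE, 95% interval -0.31 to 0.99) was the furthest from 0 of the 5 and not past the threshold (edgeR adjusted p = 0.851). It was positive within each prefix, at 0.39, 0.08 and 1.10 in prefixes 1, 4 and 5.

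Skeletal muscle markers, 10 genes led by Acta1, Mylpf and Ckm, summed to 13.1 to 76.0 CPM in Het and 11.2 to 179 in WT, and none was at 0 in all libraries. The lowest of all 13, WT 4-1, had 2.33 CPM of Slc8a3 and the highest, WT 1-4, had 2.10. The sum of the nerve and Schwann cell markers was highest in Het 4-2 (59.4 CPM), with 2.78 CPM of Slc8a3. It was lowest in Het 5-6 (24.01 CPM), with 1.49 CPM of Slc8a3, while WT 4-1 had 31.8 and 2.33 CPM. The part of either list in the Slc8a3 level was not tested.

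**Figure D4:**
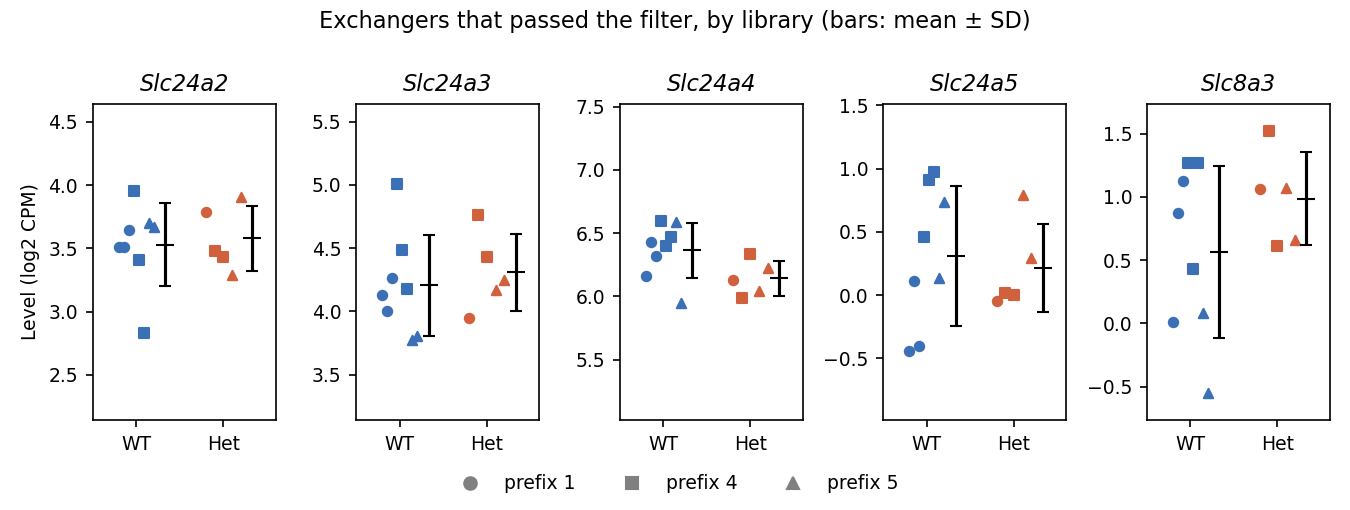
Level (log2 CPM) of the 5 exchangers above the filter, 1 point per library with its shape giving the prefix, and black bars for mean ± SD of 8 WT and 5 Het libraries. All panels span the same range of log2 units, and WT and Het points overlap in each.

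Slc8a1 (NCX1, the main exchanger of heart muscle, found in many tissues; chromosome 17, 81373105 to 81738377, minus strand) was close to absent. Het libraries had 0, 7, 8, 7 and 1 counts and WT libraries 0 to 7 (median 3.5), which made 53 in all, over a gene model of 18807 exonic bases. A count of 0 allows up to 3 counts, which is 0.113 to 0.159 CPM at these depths, for counting error only. Slc8a2 (NCX2, an exchanger of brain; chromosome 7, 16129826 to 16161063, plus strand) had 12 counts in all, was at 0 in 6 of 13 libraries and reached at most 4. Slc24a1 (NCKX1, the exchanger of rod photoreceptors; chromosome 9, 64922861 to 64951607, minus strand) had 54 counts in all. Het libraries had 1, 2, 6, 2 and 4 of them and WT libraries 0 to 18 (median 3.5), with 18 of the 54 in WT 1-3 alone. These 3 exchangers did not pass the filter on low counts. In edgeR without that filter and in DESeq2, which took in all 8 exchangers, 0 of the 8 had an unadjusted p under 0.05.

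**Figure D5:**
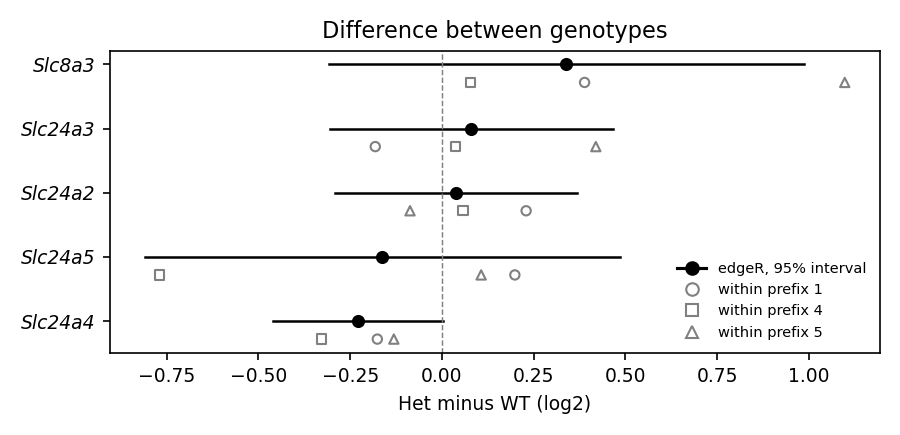
Log2 fold change of Het minus WT for the 5 exchangers tested (black points with 95% intervals from edgeR), and mean differences in log2 CPM within each prefix (open grey symbols). Every interval includes 0, with the upper end of Slc24a4 at 0.00, and only Slc24a4 and Slc8a3 keep 1 sign in all 3 prefixes.

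Likeness over the libraries differed from pair to pair of the 5 members. Pearson's r between their log2 CPM values ranged from -0.40 (Slc24a2 with Slc24a5) to 0.58 (Slc24a3 with Slc8a3) over 10 pairs, each over 13 libraries that share depth and dissection, as a description with no test. After removing prefix means, Slc24a2 with Slc24a3 went from 0.09 to 0.60, and Slc24a3 with Slc8a3 from 0.58 to 0.44. For the next ranking, genes without a symbol and those with Gm-number or Rik symbols were left out. The genes of most like pattern, taken as the 3 of highest r among the other genes tested, also differed. They are the top of very many values, each over 13 libraries, so a high r can arise by chance, and none was tested. For Slc24a4 they were Arhgef10l (0.88), Ngef (0.85) and Ppm1l (0.82), and after removing prefix means these had 0.91, 0.89 and 0.82. For Slc24a3 they were Zfp282 (0.91), Tmem151a (0.89) and Ncor1 (0.86), which fell to 0.79, 0.75 and 0.73 after removing prefix means. For Slc24a2 they were Trit1 (0.88), Wfdc17 (0.86) and Ttll11 (0.85), for Slc24a5 Rcbtb2 (0.84), Ddx58 (0.82) and Ska3 (0.82), and for Slc8a3 Gas8 (0.83), Dennd4b (0.81) and Rab32 (0.80). After removing prefix means these had 0.86, 0.84 and 0.83 for Slc24a2, 0.69, 0.72 and 0.72 for Slc24a5, and 0.83, 0.75 and 0.74 for Slc8a3. Wfdc17 was low, with a mean log2 CPM of -1.34.

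The other genes of calcium handling gave no call either. Of 30 genes for calcium pumps, store-operated entry, release channels, mitochondrial uptake and buffers, 26 were tested and 0 passed with edgeR (5 at an unadjusted p under 0.05, where 6.90% of all genes were), and 0 with DESeq2. There were 14 with negative and 12 with positive log2 fold changes and a median of -0.07, beside 50.9% negative and a median of -0.0044 over all genes. The 2 of smallest p were Ryr3, a calcium release channel (-1.08 ± 0.30, SE, edgeR adjusted p = 0.289), and Stim1, the calcium sensor of the endoplasmic reticulum (-0.28 ± 0.11, adjusted p = 0.584). Slc8b1, the mitochondrial relative of the exchangers, had a mean log2 CPM of 1.95 for Het and 1.69 for WT, and its log2 fold change was 0.24 ± 0.19 (SE, adjusted p = 0.831 with edgeR). Of 10 sodium-potassium pump genes, 9 were tested and 0 passed with edgeR or DESeq2 (1 at an unadjusted edgeR p under 0.05). Log2 fold changes were negative for 3 and positive for 6, with a median of 0.08, and the shares over all genes are those just given, with 0.0857% called by edgeR. The 2 of smallest p were the pump regulators Fxyd2 (0.73 ± 0.26, edgeR adjusted p = 0.562) and Fxyd4 (-0.23 ± 0.13, 0.762).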

How the data were processed

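Libraries of total RNA were unstranded and were sequenced as single reads of 75 bases, per the labels' protocols. The submitters' processing notes name STAR 2.5.2a, DESeq2, edgeR, limma and the build GRCm38. The sources used here do not give the counting tool. Raw counts per Ensembl gene, as deposited, were the input of every test, and a scaled table (CPM with TMM scaling, a normalized signal per the table's name). In the latter the 7 members it holds equal the count times 1 constant per library. The 24 spike-in and transgene rows (at most 0.000177% of a library) were left out. Columns give the genotype but no replicate number.

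Symbols came from the reference table, positions and exon lengths from GENCODE M21 (GRCm38) and promoters from RefSeq (GRCm38.p6). Genes were filtered with filterByExpr (minimum count 10) and tested with edgeR 4.0.16 in R 4.3.3 (TMM, glmQLFit robust, glmQLFTest), with Benjamini-Hochberg adjustment over 16328 genes. The test was tried on simulated data. Log2 CPM uses a prior count of 2. Alternatives used DESeq2 1.42.0, limma 3.58.1, other scalings and filters, the prefix as a term, and left-out libraries. Coding sequences were aligned with Biopython 1.88. The members, lists and naming rule (the 8 members, Slc8b1, the called or 2 smallest-p genes of 2 lists, and the 3 most alike genes) were chosen with earlier results of these data known. The values of some marker lists are not reported here.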

Additional observations from a re-analysis of the deposited data

Results flagged for a closer look

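One value stood far from the others of its group, among 34 groups of values examined, where chance gives about 1 in 20. The skeletal muscle markers summed to 179.1 CPM in WT 1-4, a gap of 0.739 of the WT range to the next library. Slc8a3, the exchanger known from muscle, had 2.10 CPM in that library, within the range of the other WT libraries.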

How the results depend on the processing

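No exchanger, and none of the other calcium or sodium-potassium pump genes, passed the threshold in any of the 24 alternatives, and 1 exchanger had an unadjusted p under 0.05 in 5 of them. Slc24a4 and Slc8a3 kept their sign in all 24. Slc24a4 had adjusted p of 0.503 to 0.993 over them and log2 fold changes of -0.28 to -0.19 with 1 library left out, and Slc8a3 0.17 to 0.45. Slc24a2 ran from -0.053 to 0.11 with 1 library left out (negative without Het 1-2, Het 5-6 or WT 4-4) and was -0.0068 without prefix 1. Slc24a3 ran from -0.050 (without Het 4-2) to 0.23 and was -0.10 with the maturation list as a covariate. Slc24a5 ran from -0.35 to -0.051 and was 0.32 without prefix 4. The cause of these changes was not tested. Of all genes, edgeR called 14, and the count was 27 without any count filter, 25 with a minimum of 1 CPM in 5 libraries, 74 with DESeq2, 27 with limma-voom and sample weights, 30 with the prefix as a term and 7 with the maturation list as a covariate. It was 0, 1 and 2 without prefixes 1, 4 and 5 (731, 909 and 1027 at an unadjusted p under 0.05), and 6 to 22 with 1 library left out (leaving out Het 4-2 or Het 5-6 gave 6, Het 5-5 7, Het 1-2 or WT 1-1 8, WT 1-4 9 and WT 5-1 22). Levels per kb moved by less than 1 SD with the longest transcript as length. Slc8a1, Slc8a2 and Slc24a1 had at most 18 counts in a library and entered only the fits without a count filter and with DESeq2. No paired analysis was possible because the columns carry no replicate numbers, and the prefix, whose meaning is unknown, entered as a term only in the fit named above.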
